A study of Mus musculus with 12 samples.

Results

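The 10 genes described here encode the enzymes of the pentose phosphate pathway and the main cytosolic and mitochondrial enzymes that make NADPH outside it. The members were fixed by symbol and not by a cut-off on measured values, although earlier results of these data were known when they were chosen. All 10 (G6pdx, Pgls, Pgd, Taldo1, Tkt, Rpia, Rpe, Me1, Idh1 and Idh2) were found among the 20844 genes listed in both deposited tables, of 23186 in either. The libraries, 12 in 4 groups of 3, hold RNA of mouse embryonic fibroblasts, which are primary connective-tissue cells, here taken at embryonic day 13.5 to 14.5. Cultures homozygous for an inducible Nrf2 D29H allele received empty adenovirus, under which the labels call them functionally knockout (labelled Nrf2 KO), or adenovirus carrying Cre recombinase, which turns D29H on. Cultures homozygous for an inducible Keap1 R554Q allele received empty virus, under which Keap1 acts as wild type, or Cre virus, which turns R554Q on. All groups were infected at a multiplicity of 500, grown in medium without pyruvate and collected 4 days later. No group combined Cre virus with cells lacking an inducible allele, so Cre and the mutant protein vary together. The labels do not say whether the 3 replicates of a group came from separate embryos, so the p-values measure the spread between these libraries, which may be technical.

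The pentose phosphate pathway branches from glycolysis at glucose 6-phosphate. Its oxidative branch (glucose-6-phosphate dehydrogenase, 6-phosphogluconolactonase and 6-phosphogluconate dehydrogenase) yields NADPH and ribulose 5-phosphate, and its non-oxidative branch (ribose-5-phosphate isomerase, ribulose-phosphate epimerase, transketolase and transaldolase) interconverts pentoses with glycolytic sugars. Malic enzyme 1 and isocitrate dehydrogenase 1 make NADPH in the cytosol, and isocitrate dehydrogenase 2 makes it in mitochondria. NADPH feeds the glutathione and thioredoxin systems and lipid synthesis. NRF2, the product of Nfe2l2, is a transcription factor that binds antioxidant response elements, and KEAP1 marks it for degradation. Several of these enzymes are known NRF2 targets in other cells.

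Because antioxidant response elements are read by NRF2, the promoter windows of the 10 genes (250 bases before to 50 after each RefSeq start, GRCm38.p6) were searched for the core letters TGACNNNGC on both strands. The letters were in 3 of 13 windows, belonging to 3 of 10 genes, against 12.4% of all 32851 windows and 13.99% of 27025 genes. The 3 matches are shown with 10 bases on either side, 5′ to 3′ on the gene's strand, which is the minus strand for all 3, with the matched letters in capitals.
G6pdx: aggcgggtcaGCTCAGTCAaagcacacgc
Pgd: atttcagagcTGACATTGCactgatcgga
Me1: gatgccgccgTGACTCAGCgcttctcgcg
The G6pdx site lies at chrX:74428919-74428947, in the untranslated part of exon 1 in GENCODE M21, and carries the letters on the strand opposite to the one printed. The Me1 site, at chr9:86695902-86695930, also lies in the untranslated part of exon 1, and its match begins 6 bases before the RefSeq start. The Pgd site, at chr4:149166061-149166089, belongs to a second RefSeq start. Its match lies in the coding part of exon 2 in GENCODE M21, and the window of the more upstream Pgd start (chr4:149166656-149166955) held no match. Taldo1 and the other 6 genes had none in their windows.

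Each library held 14963004 to 23818477 counted reads. Levels are given in CPM, counts relative to library size, scaled by TMM except for cell type markers, which were left unscaled. All 10 fibroblast marker genes reached 1 CPM in at least 1 library, and their summed level was 14658 to 21794 CPM. Reads of Nfe2l2, the gene labelled as knocked out, were at 40.2 to 46.5 CPM in the labelled-knockout libraries, 49.6 to 57.1 in D29H, 41.7 to 44.2 in Keap1 wild type and 34.0 to 46.4 in R554Q. The labelled-knockout and Keap1 wild-type libraries overlapped (log2 fold change -0.01, SE 0.10, adjusted p 0.965 in edgeR), so the read count of the gene did not bear out the label, and the group is called labelled knockout throughout. Reads of an inactive allele would be counted with those of an active one. The NRF2 target Nqo1, a quinone reductase that uses NADPH or NADH, had 7.65 to 10.8 CPM in labelled knockout and 108 to 134 in D29H. Its range was 33.0 to 33.4 CPM in Keap1 wild type and 306 to 378 in R554Q.

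Per length, Taldo1 was the most abundant of the 10 transcripts in every group and Rpia the least. Taldo1 had 105 ± 4.07 FPKM (fragments scaled by gene length and library size, as the authors deposited them) in labelled knockout and 125 ± 12.6 in D29H (SD, n = 3 each). It had 121 ± 5.26 FPKM in Keap1 wild type and 212 ± 15.1 in R554Q (SD, n = 3 each). Rpia had group means of 2.33 to 2.93 FPKM, and 124 to 262 reads per library stand behind them, against 407 or more for each of the other 9 genes. In labelled knockout the order below Taldo1 was Tkt (64.3 FPKM), Idh2 (55.2), Pgls (36.7), Idh1 (35.4), Pgd (31.1), Me1 (21.8), Rpe (20.9), G6pdx (9.94) and Rpia. In that order Pgls and Idh1 differed by less than the sum of their SD of 1.54 and 0.367 FPKM, as did Me1 and Rpe, with SD of 1.11 and 0.883. Pgd was the transcript that changed place most. It was 6th in labelled knockout and 3rd in D29H, and 5th in Keap1 wild type and 2nd in R554Q, at 87.3 ± 6.17 FPKM (SD, n = 3). G6pdx, which encodes the enzyme that commits glucose to the pathway, stayed 8th or 9th of the 10.

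**Figure D1:**
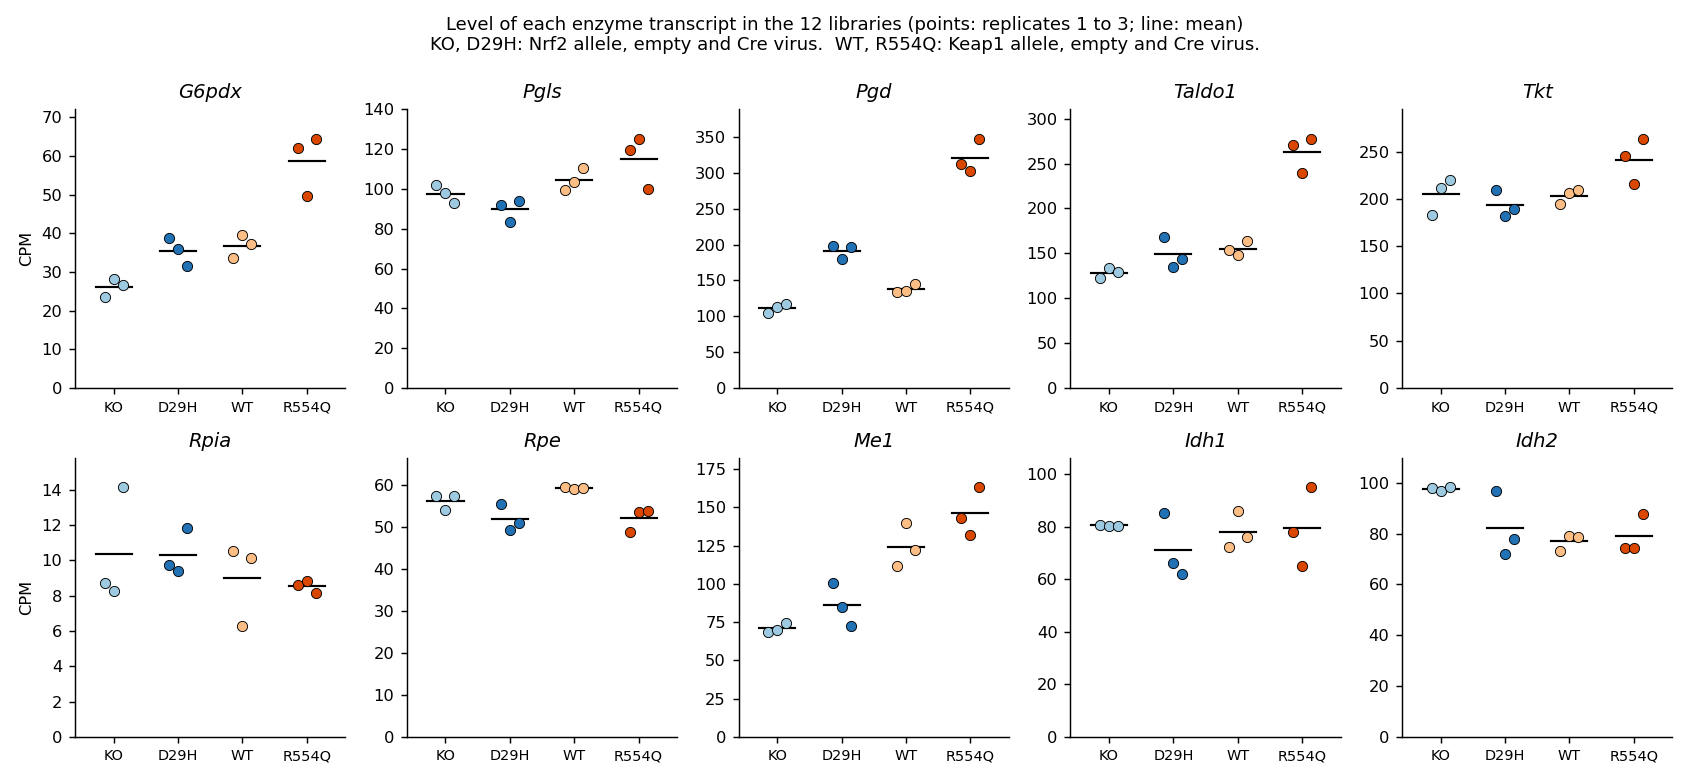
Level of each of the 10 transcripts in CPM, scaled over the 12 libraries, in the 3 libraries of each group; points are replicates 1 to 3 and the line is their mean, with a separate axis from 0 for each gene. Pgd lies at 105 to 117 CPM in labelled knockout (KO) and 179 to 199 in D29H, and at 134 to 146 in Keap1 wild type (WT) and 303 to 348 in R554Q.

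G6pdx and Pgd, both in the oxidative branch, rose with D29H, and G6pdx, Pgd and Taldo1 rose with R554Q. Tests were made with edgeR's quasi-likelihood test, with Benjamini-Hochberg adjustment over all genes tested and calls at an adjusted p under 0.05. In the comparison of D29H with labelled knockout 2 of 10 genes were called higher and 0 lower, against 4.75% of the 14370 genes tested. In the comparison of R554Q with Keap1 wild type 3 were called higher and 0 lower, against 6.17% of 14128 genes. The median log2 fold change of the 10 was -0.04 for D29H and 0.19 for R554Q, beside 0.00 over all genes in each. The groups of 3 libraries did not overlap for 3 of 10 genes in the Nrf2 comparison, where 25.6% of all genes did not, and for 5 of 10 in the Keap1 comparison, where 27.5% did not. In bulk RNA, fewer cells with a transcript and less of it per cell cannot be told apart.

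The summed levels of 7 cell type marker lists, in CPM without TMM scaling, were set beside each comparison. The shares of single genes given with them come from CPM scaled by TMM. In the Nrf2 comparison 2 of 7 lists did not overlap between the groups, where 25.6% of single genes did not. Fibroblast markers were at 19907 to 21794 CPM in labelled knockout and 18351 to 18516 in D29H, and epithelial markers at 58.4 to 74.7 and 35.3 to 52.2 CPM. In the Keap1 comparison 5 of 7 lists did not overlap, where 27.5% of single genes did not. Lower in R554Q were macrophage and other blood cell markers (95.0 to 107 CPM in wild type, 71.5 to 83.3 in R554Q), epithelial markers (56.1 to 63.9 and 46.2 to 54.1) and muscle markers (11.95 to 13.99 and 9.34 to 11.0003). Higher in R554Q were neural markers (58.2 to 64.4 and 69.5 to 75.2 CPM) and adipocyte markers (11.9 to 12.2 and 13.5 to 15.0). At least 1 marker reached 1 CPM in every list, in 3 of 6 for the epithelial, 2 of 6 for the muscle (Ckm at 0), 4 of 6 for the neural and 2 of 5 for the adipocyte list. The part of these markers in the results for the 10 genes was not tested.

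Pgd, at 149149991 to 149166771 on the minus strand of chromosome 4 (GRCm38, as in the files), encodes 6-phosphogluconate dehydrogenase, the second NADPH-making step of the oxidative branch. It had 105, 113 and 117 CPM in labelled-knockout replicates 1 to 3 and 199, 179 and 197 in the D29H replicates. All D29H libraries therefore lay above all labelled-knockout libraries, by 1.71-fold (log2 fold change 0.77, SE 0.10, adjusted p 4.6e-05 in edgeR). In Keap1 wild type it had 134, 134 and 146 CPM, and in R554Q 312, 303 and 348. The groups again did not overlap, and the difference was 2.34-fold (log2 fold change 1.22, SE 0.08, adjusted p 2.3e-08 in edgeR). Pgd passed the threshold in every one of the 15 alternative fits of each comparison.

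G6pdx encodes the X-linked glucose-6-phosphate dehydrogenase, the first NADPH-making step. It had 23.4, 28.1 and 26.6 CPM in the labelled-knockout libraries and 38.9, 36.0 and 31.4 in D29H. The groups did not overlap and differed 1.36-fold (log2 fold change 0.44, SE 0.11, adjusted p 0.0234 in edgeR). This call ended without D29H replicate 2 (0.44, adjusted p 0.118), without D29H replicate 3 (0.53, adjusted p 0.0531) and without labelled-knockout replicate 1 (0.37, adjusted p 0.0747). Between Keap1 wild type, at 33.6, 39.6 and 37.2 CPM, and R554Q, at 62.1, 49.6 and 64.5, the groups did not overlap either. That difference was 1.603-fold (log2 fold change 0.68, SE 0.10, adjusted p 0.00059 in edgeR) and stayed past the threshold in all 15 alternative fits.

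G6pdx lies on the minus strand of chromosome X at 74409483 to 74429194, inside the span of Ikbkg (74393290 to 74453854) on the plus strand, and 10.6% of the 50-base stretches of its transcripts also occur in transcripts of Ikbkg. Ikbkg encodes the regulatory subunit of the IκB kinase complex. Its reads came to 122% of those of G6pdx over the 12 libraries, and use of strand in the counting is not given in the sources used here. Ikbkg had 31.4, 31.1 and 36.2 CPM in labelled knockout and 45.7, 41.7 and 42.4 in D29H. It had 45.8, 44.8 and 44.8 CPM in Keap1 wild type and 68.5, 64.9 and 75.5 in R554Q, and the Cre-virus libraries lay above the empty-virus libraries for each allele. The log2 fold change of Ikbkg was 0.40 in D29H (SE 0.10, adjusted p 0.0278) and 0.63 in R554Q (SE 0.08, adjusted p 0.00013 in edgeR), beside 0.44 and 0.68 for G6pdx. The part of Ikbkg reads in the G6pdx values was not tested.

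**Figure D2:**
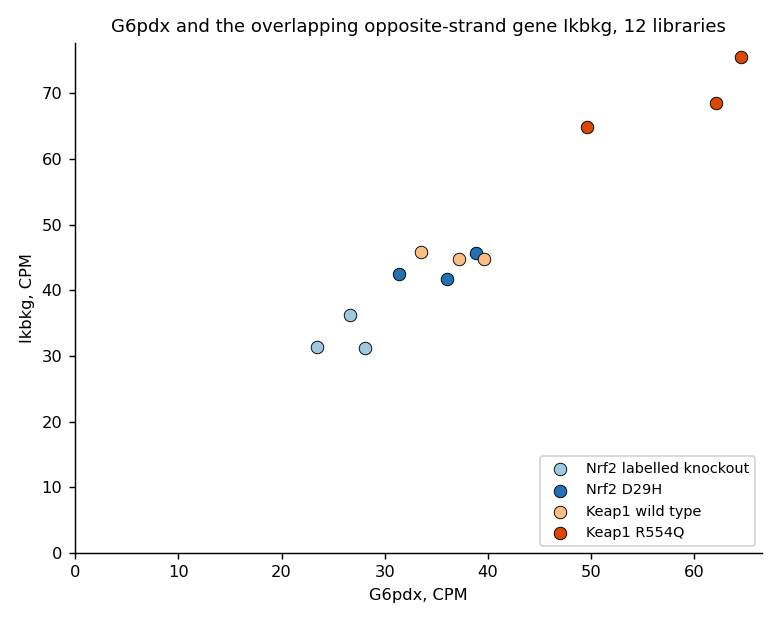
CPM of G6pdx (x axis) against CPM of Ikbkg (y axis), its overlapping neighbour on the opposite strand, with 1 point per library and colours for the 4 groups. The 3 R554Q libraries stand apart at 49.6 to 64.5 CPM of G6pdx and 64.9 to 75.5 CPM of Ikbkg, and the 3 labelled-knockout libraries are lowest on the G6pdx axis at 23.4 to 28.1.

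Pgls (chromosome 8, 71592176 to 71601092, plus strand) encodes 6-phosphogluconolactonase, which opens the lactone between these dehydrogenase steps. It had 102, 98.0 and 92.9 CPM in labelled knockout and 91.8, 83.3 and 94.1 in D29H, and 99.3, 103 and 111 in Keap1 wild type and 119, 125 and 100.2 in R554Q. The groups overlapped in both comparisons, and neither log2 fold change passed the test (-0.12, SE 0.10, adjusted p 0.462, and 0.15, SE 0.09, adjusted p 0.338 in edgeR). Corrected for GC content and length by offsets, the Keap1 value was -0.09, and without R554Q replicate 3 it was 0.24 and past the threshold (adjusted p 0.0269). A gene on the same strand, Fam129c, overlaps Pgls and had 5.58% of its reads, and 18.9% of the 50-base stretches of Pgls transcripts also occur in those of Fam129c. Fam129c was called higher in D29H (log2 fold change 0.68, adjusted p 0.025 in edgeR) and lower in R554Q than in D29H (-1.43, adjusted p 7.2e-05), and its part in the Pgls values was not tested.

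Summed per length, the 3 oxidative-branch transcripts had 77.8 ± 1.10 FPKM in labelled knockout, 103 ± 3.74 in D29H, 87.0 ± 3.48 in Keap1 wild type and 152 ± 3.49 in R554Q (SD, n = 3 each). The 4 non-oxidative transcripts summed to 194 ± 10.4, 210.0 ± 16.9, 205 ± 5.71 and 308 ± 21.7 FPKM in the same order. The sums for Me1, Idh1 and Idh2 were 112 ± 2.24, 106 ± 15.4, 110.2 ± 8.77 and 122 ± 14.7 FPKM. Sums weigh the abundant transcripts most, and they were given no test.

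Taldo1 (chromosome 7, 141392199 to 141402968, plus strand) encodes transaldolase, which returns pathway carbon to glycolysis together with transketolase. In R554Q it had 270.4, 239.6 and 278 CPM, against 154, 148 and 164 in Keap1 wild type. All R554Q libraries lay above all wild-type libraries, by 1.70-fold (log2 fold change 0.76, SE 0.08, adjusted p 1.2e-05 in edgeR). In D29H it had 168, 135 and 144 CPM, against 122, 133 and 129 in labelled knockout. The groups did not overlap, but the highest labelled-knockout and the lowest D29H library nearly met at 133 and 135 CPM. The log2 fold change was 0.22 with an SE of 0.11 and did not pass the test (adjusted p 0.219 in edgeR). It did not pass in any of 15 alternative fits.

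Tkt (chromosome 14, 30548359 to 30574722, plus strand) encodes transketolase, which moves 2-carbon units between sugars. It had 183, 211 and 220.5 CPM in labelled knockout and 209, 182 and 189.5 in D29H, which overlap (log2 fold change -0.09, SE 0.11, adjusted p 0.671 in edgeR). In Keap1 wild type it had 194, 206 and 209 CPM and in R554Q 246, 215 and 264. These groups did not overlap, but their log2 fold change, 0.26 with an SE of 0.09, did not pass in edgeR (adjusted p 0.0809). It passed in DESeq2 (0.26, adjusted p 0.0443) and without R554Q replicate 2 (0.33, adjusted p 0.0319), and its adjusted p was 0.0417 in the authors' deposited table.

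Rpia (chromosome 6, 70765720 to 70792232, minus strand) and Rpe (chromosome 1, 66700831 to 66719805, plus strand), the isomerase and epimerase that act on ribulose 5-phosphate, did not pass the test in either comparison. Rpe had 57.3, 54.1 and 57.4 CPM in labelled knockout and 55.4, 49.3 and 50.9 in D29H, which overlap. It had 59.4, 59.0 and 59.2 CPM in Keap1 wild type and 48.7, 53.5 and 53.9 in R554Q. All R554Q libraries lay below all wild-type libraries, by a log2 fold change with SE of -0.18 ± 0.08 (adjusted p 0.173 in edgeR). Kansl1l, on the opposite strand, overlaps Rpe and had 10.7% of its reads. Rpia was measured most loosely, at 8.71, 8.26 and 14.1 CPM in labelled knockout and 9.71, 9.39 and 11.8 in D29H. It had 10.5, 6.28 and 10.1 CPM in Keap1 wild type and 8.62, 8.84 and 8.16 in R554Q. The changes of Rpia were estimated at 0.01 (SE 0.17, adjusted p 0.968) with D29H and -0.07 (SE 0.16, adjusted p 0.841 in edgeR) with R554Q on the log2 scale. Labelled-knockout replicate 3 stood above the other 2 of its group, and without it the value in the Nrf2 comparison was 0.29.

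Of the NADPH-making enzymes outside the pathway, 0 of 3 passed the test in either comparison. Among all genes tested, calls made up 4.75% for D29H and 6.17% for R554Q. At such shares 0 of 3 is near the background and does not set these enzymes apart. Me1, cytosolic malic enzyme (chromosome 9, 86581371 to 86695953, minus strand), had 68.6, 69.5 and 74.3 CPM in labelled knockout and 101, 84.6 and 72.3 in D29H. The groups overlapped through D29H replicate 3 (log2 fold change 0.28, SE 0.11, adjusted p 0.137 in edgeR). It had 111, 139.7 and 122 CPM in Keap1 wild type and 143, 132 and 163 in R554Q, which overlapped through wild-type replicate 2 (0.24, SE 0.10, adjusted p 0.141). Corrected for GC content and length in the same way, the Keap1 value was 0.31 and past the threshold (adjusted p 0.0255 in edgeR). Gm7049 and Gm48795, which share 21.1% and 17.3% of the 50-base stretches of Me1 transcripts, had 0 reads listed, and how reads common to such copies were counted is not given in the sources used here.

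Idh1, the cytosolic isocitrate dehydrogenase (chromosome 1, 65158616 to 65186500, minus strand), had 80.8, 80.4 and 80.3 CPM in labelled knockout and 85.4, 66.4 and 62.0 in D29H. It had 72.3, 85.9 and 76.0 CPM in Keap1 wild type and 77.9, 65.2 and 95.0 in R554Q, and the groups overlapped in both comparisons. The log2 fold change was -0.18 in D29H (SE 0.11, adjusted p 0.333) and 0.03 in R554Q (SE 0.11, adjusted p 0.908 in edgeR). Idh2, the mitochondrial enzyme (chromosome 7, 80094846 to 80115392, minus strand), had 98.1, 96.8 and 98.2 CPM in labelled knockout and 96.9, 71.8 and 77.8 in D29H, and 73.2, 79.0 and 78.7 in Keap1 wild type and 74.3, 74.5 and 87.9 in R554Q. For Idh2 it was -0.25 in D29H (SE 0.11, adjusted p 0.164) and 0.04 in R554Q (SE 0.09, adjusted p 0.802 in edgeR). D29H replicate 1 was the highest D29H library for Idh1, Idh2, Me1, Taldo1, Tkt, Rpe, G6pdx and Pgd. Without it Idh1 (-0.33, adjusted p 0.0269) and Idh2 (-0.39, adjusted p 0.0135 in edgeR) were called lower in D29H. The number of called genes in the Nrf2 comparison was then 4, with 2 higher and 2 lower. The share of all genes called in that fit is not given here.

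**Figure D3:**
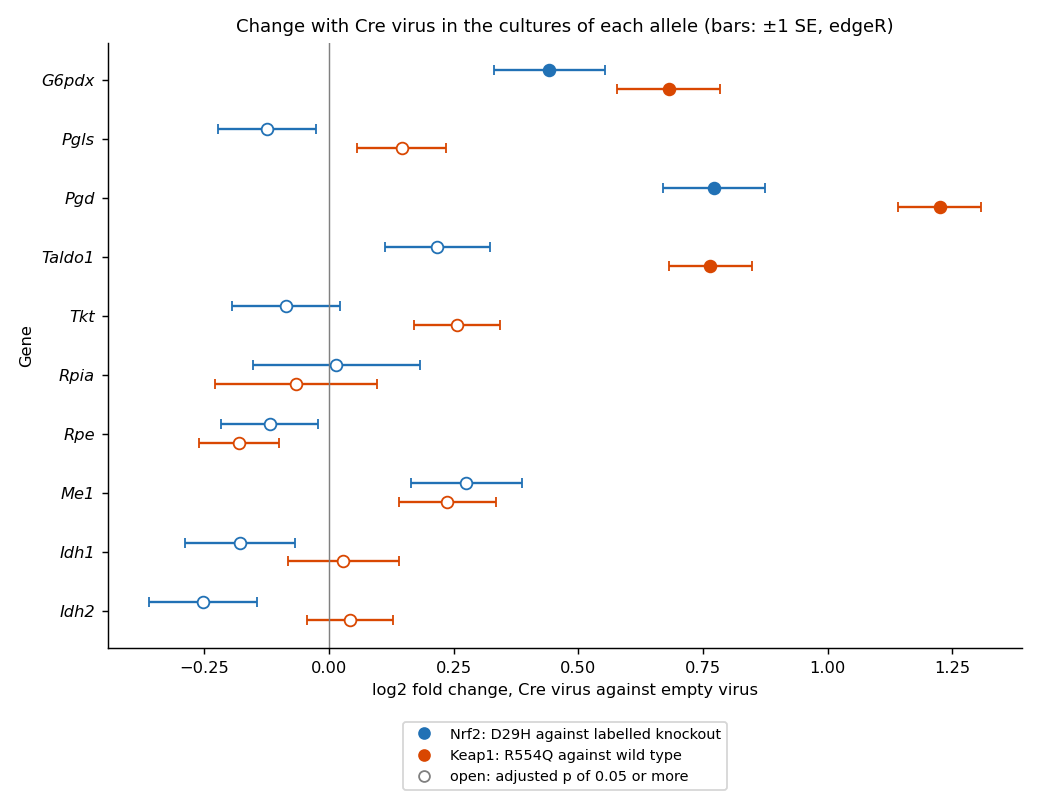
Log2 fold change of each gene between Cre and empty virus in the Nrf2 (blue) and Keap1 (orange) cultures; bars are 1 standard error on either side and filled points have an edgeR adjusted p under 0.05. Pgd has the largest value in both comparisons, 0.77 and 1.22, while Rpia and Rpe lie near or below 0.

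The alleles were set against each other in a fit that took in all 12 libraries, as the D29H change minus the R554Q change. The D29H change starts from labelled knockout and the R554Q change from Keap1 wild type, where Nqo1 averaged 8.82 and 33.2 CPM. The part of these unlike starting points in the difference was not tested. At an adjusted p under 0.05 in edgeR 0 of 10 genes were called, against 0.027% of 14794 genes, and at an unadjusted p under 0.05 there were 3 (Pgd, Taldo1 and Tkt), against 11.3% of genes. For Taldo1 the difference was -0.54 (SE 0.13, p 0.00049, adjusted p 0.149), a smaller rise in D29H than in R554Q. For Pgd it was -0.44 (SE 0.12, p 0.0016, adjusted p 0.211) and for Tkt -0.33 (SE 0.14, p 0.0217, adjusted p 0.368 in edgeR). DESeq2 called Taldo1 (-0.55, adjusted p 0.0156) and Pgd (-0.46, adjusted p 0.0284), and edgeR called Taldo1 without D29H replicate 1 (-0.66, adjusted p 0.0357). Over the 10 genes the median difference was -0.25, beside 0.01 over all genes. For G6pdx the difference was -0.23 (SE 0.16, adjusted p 0.589) and for Me1 0.05 (SE 0.16, adjusted p 0.937 in edgeR).

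The cultures of the alleles already differed under empty virus. Labelled knockout lay below Keap1 wild type for G6pdx, Pgd, Taldo1 and Me1 and above it for Idh2. In edgeR 5 of 10 genes were called (4 lower, 1 higher), against 19.7% of 14794 genes, and 6 of 10 did not overlap, against 37.0% of genes. These contrasts use libraries that also enter the comparisons above, and allele, culture and any batch cannot be told apart in them. Me1 differed most, by 1.76-fold (68.6 to 74.3 CPM against 111 to 139.7, log2 fold change -0.81, SE 0.11, adjusted p 1.3e-05). G6pdx was 1.41-fold lower (23.4 to 28.1 CPM against 33.6 to 39.6, -0.50, SE 0.11, adjusted p 0.0027). Pgd was lower by 1.23-fold (-0.30, SE 0.09, adjusted p 0.0174), as was Taldo1 by 1.21-fold (-0.28, SE 0.09, adjusted p 0.0398). Taldo1 lost its call in 9 of 12 fits that each left out 1 library, and Pgd in 3. Idh2 was 1.27-fold higher (96.8 to 98.2 CPM against 73.2 to 79.0, 0.34, SE 0.10, adjusted p 0.0168 in edgeR). It lost the call without Keap1 wild-type replicate 1 (0.32, adjusted p 0.0829). Pgls, Tkt, Rpia, Rpe and Idh1 did not pass, with log2 fold changes of -0.10, 0.01, 0.18, -0.07 and 0.04, although Pgls did with offsets for GC and length (-0.24, adjusted p 0.0194 in edgeR). With the same offsets Taldo1 lost its call (-0.235, adjusted p 0.0644), as it did when genes of low count were kept in (-0.28, adjusted p 0.0526 in edgeR).

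Under Cre virus 6 of 10 genes were called higher in R554Q than in D29H and 0 lower, against 26.5% of 14794 genes, and 7 of 10 did not overlap, against 37.3%. Taldo1 stood 1.76-fold higher (239.6 to 278 CPM against 135 to 168, log2 fold change 0.82, SE 0.09, adjusted p 1.1e-06 in edgeR). Me1 was 1.70-fold higher (132 to 163 CPM against 72.3 to 101, 0.77, SE 0.11, adjusted p 2.6e-05). Pgd followed at 1.67-fold (0.74, SE 0.09, adjusted p 1.5e-06) and G6pdx at 1.66-fold (0.73, SE 0.11, adjusted p 3.6e-05). For Pgls the difference was 1.28-fold (0.36, SE 0.09, adjusted p 0.0059) and for Tkt 1.25-fold (0.32, SE 0.10, adjusted p 0.0159 in edgeR). Tkt lost its call in 4 of 12 fits that each left out 1 library. Rpe and Idh1 overlapped between the groups and Idh2 did too, with log2 fold changes of 0.00, 0.16 and -0.06. Rpia was lower in R554Q without overlap (-0.27, SE 0.19, adjusted p 0.292 in edgeR).

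The summed level of some cell type marker lists, in CPM without TMM scaling, differed between the cultures. Of single genes, in TMM-scaled CPM, 37.0% did not overlap under empty virus and 37.3% under Cre virus. The summed level of the 10 fibroblast markers was 18351 to 21794 CPM in the Nrf2 cultures and 14658 to 16639.7 CPM in the Keap1 cultures. That of the 11 macrophage and other blood cell markers, of which 8 reached 1 CPM and Adgre1 was at 0 in all libraries, was 138 to 182 CPM and 71.5 to 107 CPM. The part of these markers in the differences between the cultures was not tested.

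**Figure D4:**
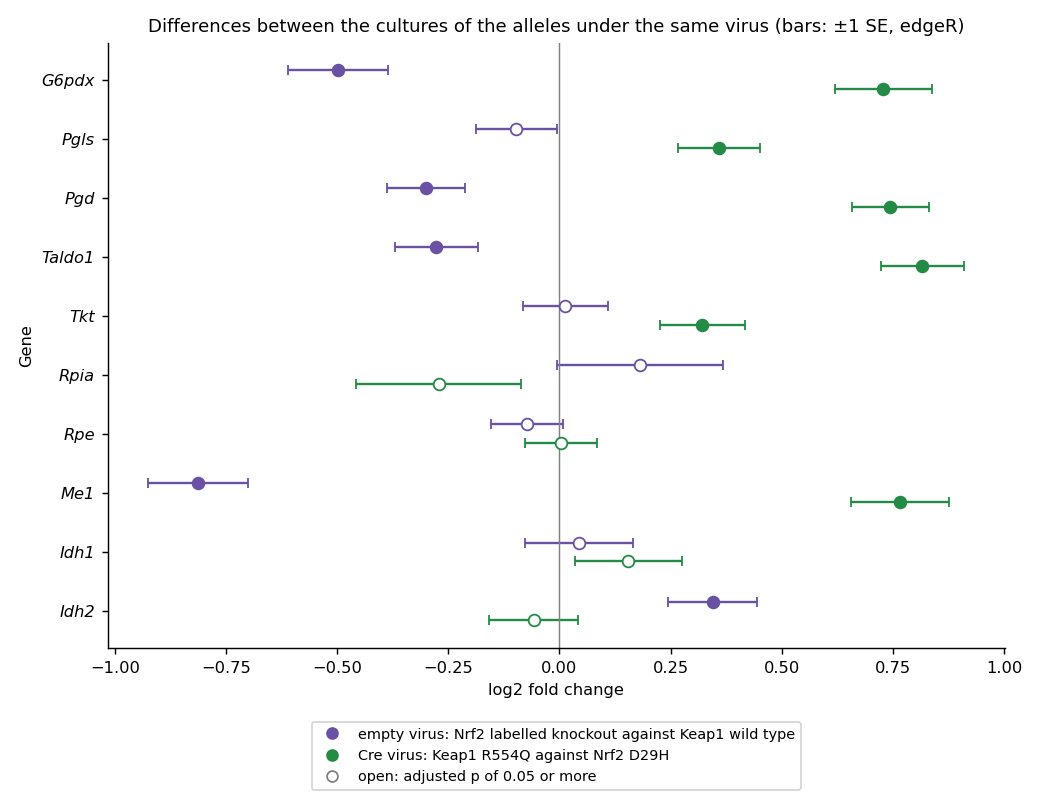
Log2 fold change of each gene between the cultures of the alleles under the same virus: labelled knockout against Keap1 wild type with empty virus (purple) and R554Q against D29H with Cre virus (green); bars are 1 standard error on either side and filled points have an edgeR adjusted p under 0.05. G6pdx, Pgd, Taldo1 and Me1 are negative in purple (-0.28 to -0.81) and positive in green (0.73 to 0.82).

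Of 16 other pentose phosphate and ribose genes, taken from a comparison list, 11 were tested. With D29H 0 were higher and 1 was lower (median -0.06), and with R554Q 1 was higher and 0 were lower (median 0.02). Beside the 4.75% and 6.17% of all genes called and the medians of 0.00 over all genes, 1 call among 11 genes is near the background in each comparison. The lower gene was Prps1, which makes phosphoribosyl pyrophosphate from ribose 5-phosphate. It had 60.3, 63.0 and 59.3 CPM in labelled knockout and 55.1, 42.6 and 43.5 in D29H, without overlap (log2 fold change -0.37, SE 0.11, adjusted p 0.043 in edgeR). The higher gene was H6pd, the counterpart of G6pdx and Pgls in the endoplasmic reticulum. It had 73.8, 71.8 and 75.8 CPM in Keap1 wild type and 94.2, 100.2 and 97.8 in R554Q, without overlap (0.41, SE 0.08, adjusted p 0.0043 in edgeR).

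Of 13 genes on a list of other enzymes that make NADPH or NADP, or are relatives of these that use NAD, 0 were higher and 2 lower with D29H (4.75% of all genes called), the list median being -0.15 beside 0.00 over all genes. The lower genes were Me2, a mitochondrial malic enzyme that mainly uses NAD (-0.37, SE 0.11, adjusted p 0.0478), and Glud1, glutamate dehydrogenase (-0.45, SE 0.12, adjusted p 0.0329 in edgeR). With R554Q 1 was higher and 2 were lower (6.17% of all genes called), and the median was -0.07 beside 0.00. Aldh1l1, a cytosolic folate enzyme that makes NADPH, was higher at 1.37, 1.22 and 1.82 CPM in wild type and 3.36, 3.54 and 3.81 in R554Q (1.29, SE 0.23, adjusted p 0.0027 in edgeR). Its mitochondrial relative Aldh1l2 (-0.44, SE 0.10, adjusted p 0.0201) and the mitochondrial folate enzyme Mthfd2 (-0.41, SE 0.08, adjusted p 0.0047 in edgeR) were lower.

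Around Idh1, Idh2 and Me1, 12 genes of the citrate and malate steps gave 0 higher and 1 lower call in the Nrf2 comparison (median -0.20) and 0 calls in the Keap1 comparison (median 0.01), where 4.75% and 6.17% of all genes were called. The lower gene was Idh3a, a subunit of the NAD-dependent isocitrate dehydrogenase (-0.37, SE 0.10, adjusted p 0.0405 in edgeR). Of 17 glycolysis genes 16 were tested, with 2 lower and 0 higher in the Nrf2 comparison (median -0.24) and 1 higher and 1 lower in the Keap1 comparison (median 0.00). Ldha, lactate dehydrogenase A, was lower in both comparisons (-0.55, SE 0.14, adjusted p 0.0215, and -0.41, SE 0.10, adjusted p 0.0219 in edgeR). Pgam1, phosphoglycerate mutase, was lower in D29H (-0.47, SE 0.11, adjusted p 0.0186), and Pfkm, a phosphofructokinase, was higher in R554Q (0.33, SE 0.08, adjusted p 0.0253 in edgeR). Between the Cre-virus groups 10 of the 16 were higher in R554Q than in D29H and 0 lower, with a median of 0.30, where 26.5% of all genes were called and their median was -0.01. In the same contrast 5 of the 12 citrate and malate genes were higher and 0 lower (median 0.21), as were 2 and 0 of the 11 pentose phosphate and ribose genes (median 0.10). Of the 13 NADPH, NADP or related genes 2 were higher and 1 lower (median 0.14), and of 21 NADPH-using enzymes 9 were higher and 3 lower (median 0.18). Between the empty-virus groups, where 19.7% of all genes were called, labelled knockout against Keap1 wild type gave 0 higher and 2 lower for glycolysis (median -0.04) and 0 calls for the citrate and malate genes (median -0.09). It gave 0 calls for the pentose phosphate and ribose genes (median -0.02), 2 higher and 1 lower for the NADPH, NADP or related genes (median 0.00), and 2 higher and 5 lower for the NADPH-using enzymes (median -0.11).

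Of the 21 enzymes that use NADPH, 5 were higher and 0 lower in each comparison, with medians of -0.03 and 0.07. Calls in either direction made up 4.75% of all genes for D29H and 6.17% for R554Q, and the medians over all genes were 0.00. In both these were Nqo1, Txnrd1 (thioredoxin reductase), Gsr (glutathione reductase), Blvrb (biliverdin reductase B) and Cbr3 (a carbonyl reductase). After Nqo1 the largest value was that of Blvrb. It had 19.8, 19.1 and 13.4 CPM in labelled knockout and 58.8, 50.6 and 55.4 in D29H (1.64, SE 0.12, adjusted p 1.5e-09 in edgeR), and 24.5, 23.4 and 25.1 in Keap1 wild type and 118, 95.8 and 101 in R554Q (2.12, SE 0.09, adjusted p 4.5e-11). Gsr, which spends NADPH to regenerate glutathione, changed by 0.43 in D29H (SE 0.11, adjusted p 0.0202) and 0.83 in R554Q (SE 0.09, adjusted p 1.3e-05 in edgeR) on the log2 scale, beside the 0.44 and 0.68 of G6pdx.

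**Figure D5:**
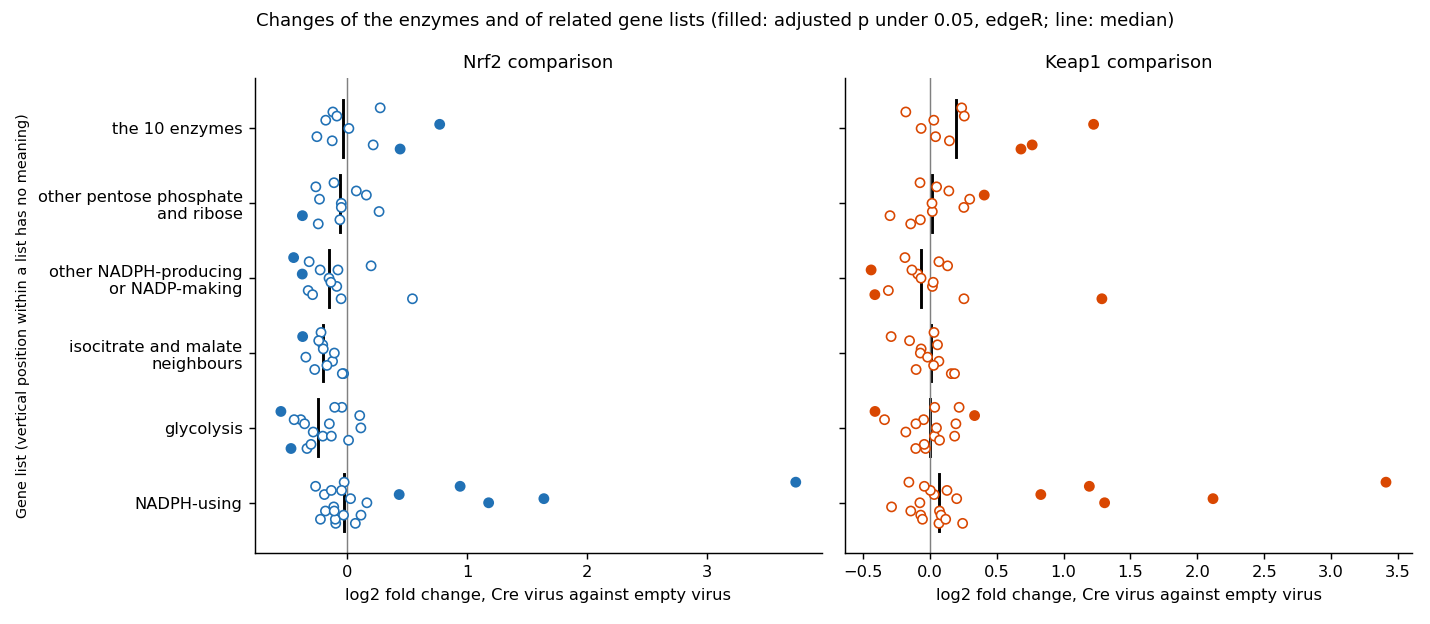
Log2 fold change between Cre and empty virus of the 10 enzymes and of 5 related gene lists, in the Nrf2 comparison (left) and the Keap1 comparison (right); each point is a gene, filled where the edgeR adjusted p is under 0.05, and the vertical line is the list's median. The medians lie between -0.24 and 0.19, and the values above 1.5 belong to Nqo1 and Blvrb.

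The transcripts whose level followed these enzymes most closely were looked for over the 12 libraries. The pattern was the mean standardised log2 CPM of the 6 enzymes known to respond to NRF2 (G6pdx, Pgd, Taldo1, Tkt, Me1 and Idh1), and 10589 other genes averaging 100 or more counts were ranked by Pearson's r with it. The 12 libraries share groups, so r is a description with no test. The 5 highest were Kitl (stem cell factor, r 0.97), Zadh2 (0.97), Abhd4 (0.95), Tmtc4 (0.95) and Sqstm1 (the autophagy receptor p62, 0.95). Sqstm1 had 272 ± 26.9 CPM in labelled knockout, 298 ± 35.5 in D29H, 351 ± 17.3 in Keap1 wild type and 514 ± 27.1 in R554Q (SD, n = 3 each). Kitl had 16.9 ± 2.60, 20.1 ± 3.76, 21.8 ± 2.64 and 42.1 ± 7.10 CPM in the same order. These genes were chosen for following the pattern, so their levels are a description and no test of them is given. Ikbkg was 17th (r 0.92) and Nqo1 444th (0.73). The 6 enzymes did not follow their mean alike: r ran from 0.45 for Idh1 to 0.95 for G6pdx and Taldo1, values that are raised because each gene is part of the mean. Of the 4 members outside the mean, r was 0.51 for Pgls, -0.19 for Idh2, -0.22 for Rpe and -0.39 for Rpia.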

How the data were processed

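RNA-seq of 12 libraries was analysed from 2 tables, 1 per allele. Per the file headers the authors gave unnormalised read counts and FPKM for each gene. FPKM recomputed from count, listed length and column total matched to within 5e-10%. The deposited log2 fold changes, p-values and scaled-count means (a signal for each group) are the authors' own statistics and entered no test here. STAR, DESeq2 and mm10 are named in the submitters' processing notes. Whether strand was used, and the counting tool and annotation, are not given in the sources used here. The gene identifiers of 98.97% and 98.98% of rows were found in GENCODE M21, and 9 of the 10 genes had the same start and end there.

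Counts were tested in R 4.3.3 with edgeR 4.0.16 (filterByExpr, TMM, quasi-likelihood test, Benjamini-Hochberg adjustment over all genes, adjusted p under 0.05). The Nrf2 and Keap1 comparisons used their own 6 libraries, and the other 3 contrasts used all 12. Standard errors were derived from the log2 fold change and its F statistic. CPM were scaled by TMM over all 12 libraries, except for the cell type markers, whose counts were divided by the library's own total only. Alternatives were DESeq2 1.42.0, limma 3.58.1 with trend, scaling by RLE or upper quartile, a filter at a mean of 50 counts or none, GC and length offsets, all 12 libraries in 1 fit, a replicate block, a threshold of 0.01 and each library left out in turn. The scripts were tested on simulated data. Mitochondrial genes took 0.725% to 1.77% of reads, and replicates differed by more than sampling noise (chi-square per degree of freedom 4.95 to 25.1).

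The 10 genes, the comparison lists and the rule for named genes (the 10, list genes called in either comparison, and the 5 with the closest pattern) were chosen with earlier results of these data known.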

Additional observations from a re-analysis of the deposited data

How the results depend on the processing

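Pgd and Taldo1 in the Keap1 comparison, Pgd in the Nrf2 comparison and G6pdx in the Keap1 comparison kept direction and call in all their alternatives. So did G6pdx and Me1 between the cultures under either virus, and Pgd, Taldo1 and Pgls between the Cre-virus groups. The number of genes called ran from 1 to 4 in the Nrf2 comparison when 1 library was left out (4 without D29H replicate 1, 1 without D29H replicate 2 or 3 or labelled-knockout replicate 1) and was 1 at an adjusted p under 0.01. It ran from 3 to 4 in the Keap1 comparison, 0 to 1 for the difference between the alleles (2 with DESeq2), 3 to 5 between the empty-virus groups (2 at an adjusted p under 0.01) and 5 to 6 between the Cre-virus groups. The share of all genes called is not given here for any alternative fit, so these counts cannot be read against it. The cause was not tested.

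The replicate numbers of the titles gave no sign of pairing: deviations of same-numbered libraries of a pair of groups correlated at -0.17 to 0.03. With 3 libraries per group this cannot decide whether same-numbered libraries share an origin. With a replicate block 2, 3 and 0 genes were called in the Nrf2 comparison, the Keap1 comparison and the difference between the alleles, as without it. With a purine before the first letter of the core 1 window matched, that of Me1, against 6.31% of all windows. With Spearman's rho 4 of the 5 closest genes stayed. The order of the 4 group means was the same in FPKM as in CPM for 5 of 10 genes.

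Signs turned for values that were not called in the fit as reported, the largest being 0.18 for Rpia between the empty-virus groups. With GC and length offsets these were Pgls (-0.091) and Idh2 (-0.012) in the Keap1 comparison and Tkt (-0.042) between the empty-virus groups, and for Rpe between the Cre-virus groups upper-quartile scaling gave -0.023 and a mean count of at least 50 gave -0.017. With 1 library left out, values ran from -0.14 to 0.29 for Rpia in the Nrf2 comparison. In the Keap1 comparison they ran from -0.27 to 0.066 for Rpia, -0.12 to 0.15 for Idh1 and -0.037 to 0.082 for Idh2. In the difference between the alleles they ran from -0.053 to 0.35 for Rpia, -0.0067 to 0.10 for Rpe and -0.11 to 0.16 for Me1. Between the empty-virus groups they ran from -0.043 to 0.088 for Tkt, -0.083 to 0.32 for Rpia and -0.0015 to 0.13 for Idh1, and between the Cre-virus groups from -0.035 to 0.063 for Rpe, -0.002 to 0.31 for Idh1 and -0.15 to 0.086 for Idh2. Rpia had the fewest reads of the 10 genes, 124 to 262 per library, and what depth and library spread each add to its error was not tested.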
